A study of Homo sapiens with 8 samples.

Results

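The genes described here encode proteins that copy DNA and mend it. They were taken as all genes whose symbol in the platform annotation matches the names of the MCM, GINS, ORC, RFC, RPA, DNA polymerase, primase, FANC, RAD, XRCC, MSH and MLH families, or CDC6, CDC7, CDC45, CDT1, PCNA, RRM1, RRM2, BRCA1, BRCA2, BLM, UNG and the DNA ligases. Of 14884 named genes on the arrays 56 matched. None of the 56 is an ORC, RFC, RPA, primase, BRCA or ligase gene. The choice used symbols only and no measured value, but it was made with earlier results of these data known. Some matches carry a family name without its function, among them FANCD2OS, the mRNA export factor MCM3AP, and the antisense RNAs MCM3AP-AS1 and RAD21-AS1. MSH5 and RAD54L2 are counted under mismatch repair and homologous recombination by their family names. RAD51AP2 and RAD21L1 lay under the lower quartile of all probe means (4.45) and were not shown to be above background.

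RNA came from THP-1 cells, a line grown from a human acute monocytic leukaemia, after 5 h in culture medium with a compound or solvent. There were 2 arrays of IPA-3 at 6 µg/mL, 2 of FRAX-597 at 2 µg/mL and 4 of DMSO in equal volume, numbered DMSO 1 to 4. IPA-3 is an allosteric inhibitor of group I p21-activated kinases, and FRAX-597 competes with ATP for the same kinases. By its title the series is about PAK1 in acute myeloid leukaemia and myelodysplastic syndrome. All groups share this 1 cell line. No label says whether replicates were separate cultures, so a p-value here reflects array-to-array spread that may be technical.

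The arrays separated into 2 sets by their scale. Medians over all 53617 probes were 5.52 and 5.55 with IPA-3, against 5.51 and 5.51 in DMSO 1 and 2, whereas they were 6.00 and 6.04 with FRAX-597, against 6.03 and 6.05 in DMSO 3 and 4. Each inhibitor was therefore compared with the DMSO arrays of its own set, and no change was taken across the sets. A level is set against other probes only as above or below the median or lower quartile of all probe means, which gives a rough place. A level here is a log2 expression value and a change is a difference of log2 values, so that a change of -0.58 is a 1.5-fold lower level. Of 12 monocytic markers 8 were measured, among them LYZ, CD68, SPI1 and CSF1R, and all 8 lay above the median of all probe means. The B cell marker measured, CD22, lay below that median, as did 3 of 4 epithelial and 1 of 2 T cell markers. The mean of the 8 monocytic markers was 8.97 and 8.92 with IPA-3, against 9.09 and 9.12 in DMSO 1 and 2, and its part in the results was not tested. Of the genes that mark this group, MCM4, MCM5, GINS2 and UNG, all were measured.

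Replication starts in G1, when the origin recognition complex with CDC6 and CDT1 loads the ring-shaped MCM2 to MCM7 helicase on DNA. At the start of S phase the kinase CDC7, CDC45, MCM10 and the GINS complex turn the loaded ring into a moving helicase. PCNA then clamps the polymerases to DNA, and ribonucleotide reductase supplies their substrates. Many of these genes are transcribed in bursts at the G1 to S boundary by E2F factors, which bind sites of the form TTTCCCGC or TTTGGCGC. Repair has its own enzymes, such as the uracil-DNA glycosylase UNG, the MSH and MLH mismatch proteins, the recombination proteins and the Ku subunits XRCC5 and XRCC6. In a lysate of whole cultures, fewer cells in S phase and less RNA per cell cannot be told apart.

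The promoters of 5 genes are shown because 3 of them, UNG, MCM3 and GINS2, lay lower with both inhibitors, and MCM6 and POLI lay lower with IPA-3 and higher with FRAX-597. Sequences are from RefSeq on GRCh38.p14 and run 5′ to 3′ on the strand of the gene, from 250 bases before the transcription start to 30 after it. Capitals mark TTTCCCGC, TTTGGCGC, TTTCGCGC or TTTGCCGC read on either strand, overlapping matches included. The windows are chr12:109097922-109098201 (plus strand) for UNG, chr6:52284713-52284992 (minus strand) for MCM3, chr16:85688925-85689204 (minus strand) for GINS2, chr2:135876414-135876693 (minus strand) for MCM6 and chr18:54269324-54269603 (plus strand) for POLI.
UNG: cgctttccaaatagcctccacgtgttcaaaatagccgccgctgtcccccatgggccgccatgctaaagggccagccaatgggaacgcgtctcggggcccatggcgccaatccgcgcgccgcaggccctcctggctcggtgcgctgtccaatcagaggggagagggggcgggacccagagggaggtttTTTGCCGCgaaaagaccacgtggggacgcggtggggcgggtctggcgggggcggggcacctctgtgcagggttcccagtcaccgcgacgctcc
MCM3: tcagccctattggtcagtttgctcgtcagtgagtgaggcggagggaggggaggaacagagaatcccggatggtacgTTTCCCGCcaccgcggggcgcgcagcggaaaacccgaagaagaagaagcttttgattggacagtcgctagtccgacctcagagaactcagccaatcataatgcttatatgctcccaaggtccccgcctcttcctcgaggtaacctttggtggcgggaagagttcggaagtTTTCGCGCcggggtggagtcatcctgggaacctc
GINS2: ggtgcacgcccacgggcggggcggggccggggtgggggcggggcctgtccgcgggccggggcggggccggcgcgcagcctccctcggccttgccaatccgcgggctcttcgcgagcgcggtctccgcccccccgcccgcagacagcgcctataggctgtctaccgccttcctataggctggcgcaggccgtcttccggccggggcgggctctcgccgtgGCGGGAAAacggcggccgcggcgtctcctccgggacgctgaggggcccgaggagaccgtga
MCM6: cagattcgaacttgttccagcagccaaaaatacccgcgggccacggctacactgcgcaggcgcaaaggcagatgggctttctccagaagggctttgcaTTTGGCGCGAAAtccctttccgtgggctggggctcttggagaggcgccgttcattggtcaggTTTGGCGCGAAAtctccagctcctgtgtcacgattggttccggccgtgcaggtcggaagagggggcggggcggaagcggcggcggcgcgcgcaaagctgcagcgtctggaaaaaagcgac
POLI: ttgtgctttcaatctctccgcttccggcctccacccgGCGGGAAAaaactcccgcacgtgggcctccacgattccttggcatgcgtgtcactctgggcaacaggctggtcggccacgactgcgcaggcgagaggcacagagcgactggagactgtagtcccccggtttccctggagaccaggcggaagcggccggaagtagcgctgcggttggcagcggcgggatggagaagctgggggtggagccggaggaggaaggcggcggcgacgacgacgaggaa

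The MCM6 window held 4 matches, which overlap as 2 copies of TTTGGCGCGAAA, and MCM3 held 2. UNG, GINS2 and POLI held 1 each. The UNG match begins 63 bases before the start shown, and the table lists another UNG start whose window held none. Promoter windows, from 250 bases before to 50 after a start, were matched by symbol for 47 of the 56 genes, which have 66 listed starts. FANCD2OS, GINS4, MCM4, MCM5, RAD21, RAD21-AS1, RAD54B, RRM2B and XRCC5 were not matched. At least 1 of the 4 motifs stood in 27.3% of these starts, against 3.31% of all 35116 starts in the table. Among the genes of helicase loading and activation, 10 of 12 had such a start, against 8 of 35 in the other roles. Of the genes with both inhibitors below DMSO in every array 8 of 14 had such a start (57.1%), against 10 of 33 of the others (30.3%). These groups come from the measured changes, so the shares are a description, and a match of letters is not a measured binding site.

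Under IPA-3 these genes lay slightly lower nearly throughout. Of the 56 genes 49 had a change below 0, where 55.6% of all genes did, and 7 a change above 0, where 44.4% did. Their median change was -0.14, against -0.02 over all 14884 genes. In 36 genes (64.3%) both IPA-3 arrays lay below both DMSO arrays, where 28.3% of all genes did so. The 56 genes were brighter than all genes, with median levels of 8.61 and 6.69, and the part of level in that share was not tested. RRM2 was the 1 gene with both arrays above, where 19.3% of all genes were. The changes were small, from -0.58 in UNG to 0.45 in RAD21-AS1. None of the 56 passed limma at an adjusted p under 0.05, a threshold that 0.0336% of all genes passed. The unadjusted p was under 0.05 in 6 genes (10.7%), where it was in 7.21% of all genes. All 6 were lower, as were 4.11% of all genes, and 0 were higher, as were 3.1%. That count of 6 was 16 when the 4 arrays were fitted alone. There 1277 of all 14884 genes were lower at that threshold, against 611 in the main fit. The count was smaller without DMSO 1, DMSO 2 or IPA-3 2, where 1 array is left in a group. The count over all genes was smaller there too.

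Among the genes of the helicase and its loading, all 8 measured lay lower with IPA-3 in every array, where 28.3% of all genes did so. MCM3, a subunit of the ring, was at 10.41 and 10.32 in the IPA-3 arrays, against 10.90 and 10.84 in DMSO 1 and 2. The 2 pairs lay well apart, and the change was -0.50 (SE 0.12; limma adjusted p = 0.472). MCM4, also of the ring, was at 10.14 and 10.15 with IPA-3, against 10.37 and 10.55 in DMSO 1 and 2, a change of -0.31 (SE 0.12; adjusted p = 0.663). MCM2 (-0.37), MCM7 (-0.29) and MCM6 (-0.29) had changes of like size with larger p, and MCM5 had -0.12 (SE 0.16; adjusted p = 0.929). The loading factors CDT1 and CDC6 had changes of -0.20 and -0.11. The ring subunits therefore ran from -0.50 to -0.12, and the interval of the smallest, MCM5, reached from -0.50 to 0.25 (95%).

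The 7 genes of helicase activation were all below 0 as well. GINS2, a subunit of the GINS complex, was at 7.41 and 7.13 with IPA-3, against 7.76 and 7.61 in DMSO 1 and 2. Its change was -0.42 (SE 0.16; adjusted p = 0.654), with IPA-3 2 lower than IPA-3 1, so that it was -0.28 without IPA-3 2. CDC45, which joins MCM and GINS into the active helicase, was at 8.01 and 7.90 with IPA-3, against 8.23 and 8.27 in DMSO 1 and 2 (change -0.29, SE 0.12; adjusted p = 0.686). GINS4 had a change of -0.34 (SE 0.15), which was -0.15 without IPA-3 2. A second, dimmer GINS4 probe gave 0.13 (SE 0.23), so the 2 probes differed in sign. CDC7, GINS1 and MCM10 had changes from -0.23 to -0.19. GINS3 was at 8.63 and 8.51, against 8.56 and 8.63, and showed no separation of the groups.

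UNG, which cuts uracil out of DNA, had the lowest change of the 56 genes under IPA-3, though it did not pass the test. Its levels were 8.40 and 8.28 with IPA-3, against 8.89 and 8.96 in DMSO 1 and 2. The gap between the groups exceeded the spread within either pair, and the change was -0.58 (SE 0.13; adjusted p = 0.454). XRCC1, the scaffold of single-strand break repair, had a change of -0.26 (SE 0.15).

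The 3 genes of ribonucleotide reductase differed in sign with IPA-3. RRM2B, the small subunit known as a p53 target, was at 8.12 and 7.81 with IPA-3, against 8.33 and 8.34 in DMSO 1 and 2 (change -0.37, SE 0.14; adjusted p = 0.654), and -0.21 without IPA-3 2. RRM2, the small subunit that S-phase cells use, was at 8.72 and 8.61 with IPA-3, against 8.52 and 8.52 in DMSO 1 and 2. That is a change of 0.14 (SE 0.22; adjusted p = 0.946). RRM1, the large subunit, had -0.13. The clamp PCNA had a change of -0.10, on levels of 9.59 and 9.61 with IPA-3, against 9.68 and 9.71 in DMSO 1 and 2.

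Most of the other repair genes also had a change below 0 with IPA-3. The 13 genes of homologous recombination had a median change of -0.14 and ranged from -0.31 in XRCC2 to 0.03 in MCM9. The 4 mismatch repair genes had a median of -0.07, the 3 of end joining -0.10, the 4 of translesion synthesis -0.10 and the 4 of the checkpoint clamp and its loader -0.07, with the clamp subunit RAD9A at -0.34 (SE 0.18). Of these 28 genes 0 had an unadjusted p under 0.05, where 7.21% of all genes had. RAD23B, which recognises lesions in nucleotide excision repair, was at 9.75 and 9.71 with IPA-3, against 9.73 and 9.70 in DMSO 1 and 2. The antisense RNA RAD21-AS1 had the highest change, 0.45 (SE 0.23; adjusted p = 0.735), on levels of 5.85 and 5.22 with IPA-3, against 4.85 and 5.31 in DMSO 1 and 2. Its arrays overlapped and the change was 0.14 without IPA-3 1.

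**Figure D1:**
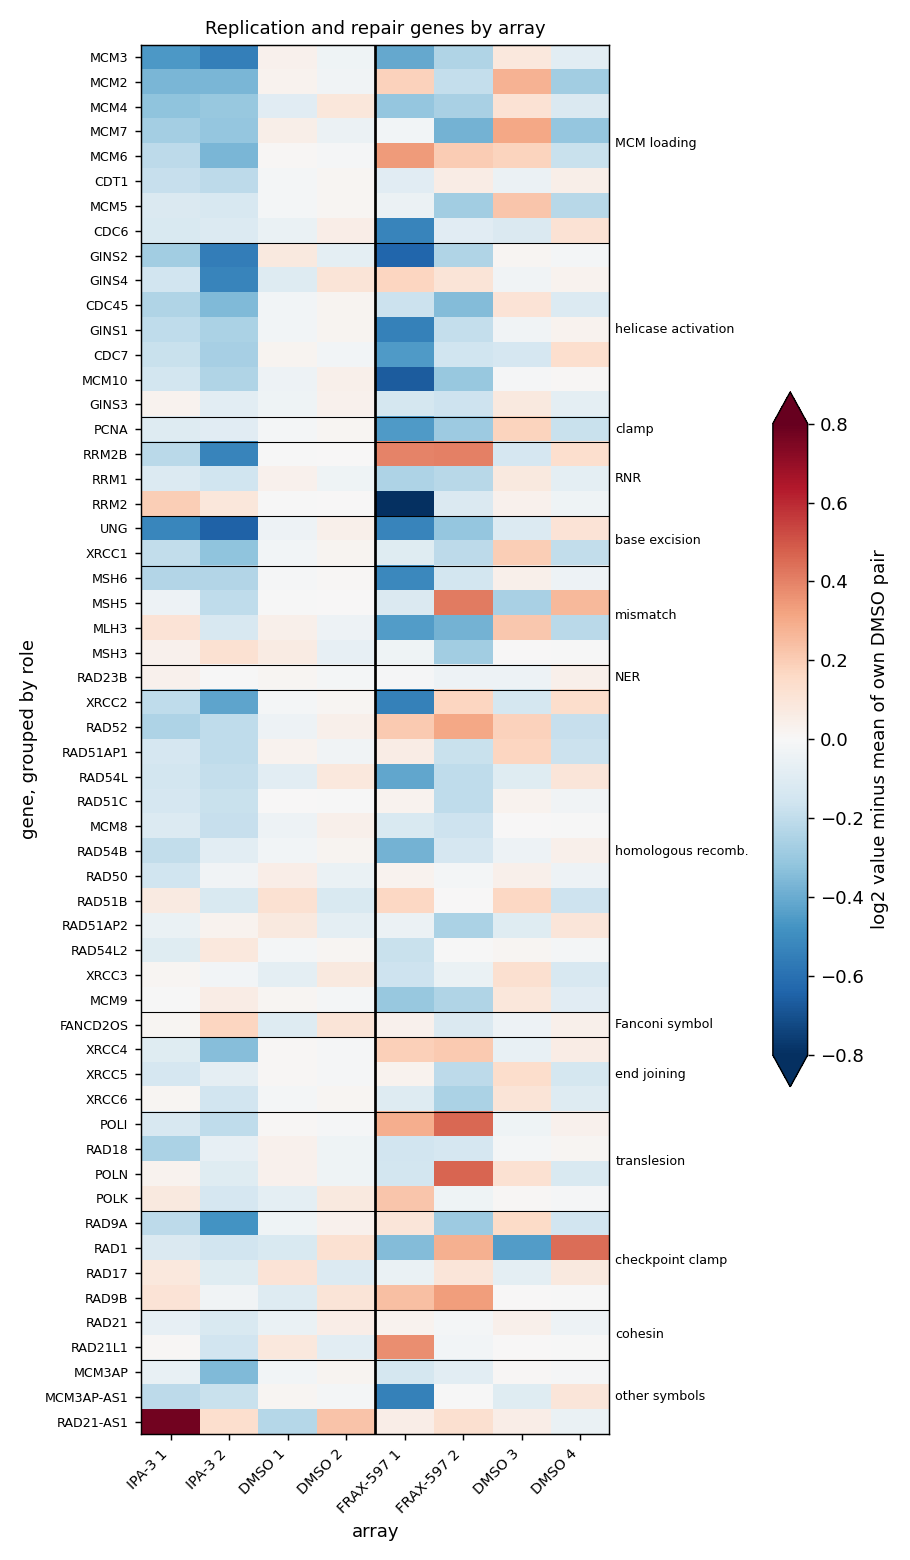
Levels of the 56 genes in each array as log2 values minus the mean of the DMSO pair of the same array set (colour, blue lower and red higher), with genes in rows grouped by role and arrays in columns. The IPA-3 columns are blue in most rows, and the mean of the 2 arrays lies below the DMSO pair in 49 of 56, while the FRAX-597 columns mix blue rows such as MCM10 with red ones such as RRM2B and POLI.

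With FRAX-597 the genes split. Of 56, 40 had a change below 0 (54.7% of all genes did) and 16 above 0 (45.3% did). The median was -0.13, against -0.02 over all genes. Both FRAX-597 arrays lay below both DMSO arrays in 21 genes (37.5%), where 17.8% of all genes did so, and above both in 7 (12.5%), where 13% did. None passed limma at an adjusted p under 0.05, which 0.155% of all genes passed. The unadjusted p was under 0.05 in 13 genes (23.2%), where it was in 7.66% of all genes. Of these 10 were lower, as were 3.61% of all genes, and 3 were higher, as were 4.04%. The count of 10 was 2 when the 4 arrays were fitted alone. There 272 of all 14884 genes were lower at that threshold, against 538 in the main fit. It was also smaller without DMSO 1 or DMSO 2, which enter only the estimate of spread, and without DMSO 3 or FRAX-597 1. Leaving out any of these leaves 1 array in a group. The count over all genes was smaller too, except without FRAX-597 1. Without FRAX-597 1 the share of the 56 genes was no higher than that of all genes, so the excess rested on that array. The median relative to all genes was -0.11, and -0.06 without DMSO 3.

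The 10 lower genes were MCM10, UNG, MCM3, GINS1, GINS2, PCNA, MLH3, MCM9, MSH6 and RAD54L. MCM10, which helps start the helicase, was at 8.58 and 8.94 with FRAX-597, against 9.23 and 9.26 in DMSO 3 and 4. FRAX-597 1 was the lower of its pair, both lay below the DMSO arrays, and the change was -0.49 (SE 0.14; adjusted p = 0.39), or -0.31 without FRAX-597 1. GINS2 was at 8.14 and 8.53 with FRAX-597, against 8.78 and 8.76 in DMSO 3 and 4 (change -0.44, SE 0.16; adjusted p = 0.586). GINS1 was at 9.47 and 9.82 with FRAX-597, against 9.98 and 10.04 in DMSO 3 and 4 (change -0.37, SE 0.13; adjusted p = 0.573). For both, FRAX-597 1 lay lower than FRAX-597 2, and without it the changes were -0.24 in GINS2 and -0.19 in GINS1. The other activation genes CDC7 (-0.30), CDC45 (-0.26) and GINS3 (-0.15) also had both arrays below DMSO 3 and 4, and GINS4 (0.14) had both above. Of all genes 17.8% had both below and 13% both above. CDC7 had -0.16 without FRAX-597 1, and CDC45 had -0.15 without DMSO 3. The median of the 7 was -0.30.

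UNG was at 8.25 and 8.47 with FRAX-597, against 8.67 and 8.89 in DMSO 3 and 4 (change -0.42, SE 0.13; adjusted p = 0.452). PCNA was at 9.04 and 9.21 with FRAX-597, against 9.67 and 9.32 in DMSO 3 and 4 (change -0.37, SE 0.14; adjusted p = 0.59). Its DMSO arrays differed by more than the gap between FRAX-597 2 and DMSO 4, and the change was -0.20 without DMSO 3. The mismatch repair genes MLH3 (-0.41, SE 0.16) and MSH6 (-0.33, SE 0.14) lay lower in both arrays, as did MCM9 (-0.27, SE 0.11), a helicase of recombination repair, and RAD54L (-0.31, SE 0.13), a motor protein of recombination repair. Their adjusted p ran from 0.607 to 0.636. MLH3 had -0.20 without DMSO 3, and MSH6 had -0.15 without FRAX-597 1.

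The genes of the helicase ring differed in sign with FRAX-597. MCM3 was at 10.75 and 10.92 with FRAX-597, against 11.24 and 11.07 in DMSO 3 and 4 (change -0.32, SE 0.12; adjusted p = 0.57), and MCM4 at 10.37 and 10.42, against 10.79 and 10.56 (change -0.29, SE 0.12; adjusted p = 0.658), or -0.17 without DMSO 3. MCM5 (-0.16), MCM7 (-0.20) and MCM2 (-0.005) had FRAX-597 arrays that overlapped the DMSO arrays. All 6 ring genes were higher in DMSO 3 than in DMSO 4, by 0.17 to 0.62, and 4 of 6 were higher in FRAX-597 1 than in FRAX-597 2. Without DMSO 3 the changes of MCM2, MCM5 and MCM7 were 0.28, 0.06 and 0.11, so their sign rested on that array. For MCM2 it was also above 0, at 0.18, without FRAX-597 2. MCM6 was at 10.16 and 10.03 with FRAX-597, against 10.00 and 9.64 in DMSO 3 and 4, the 1 ring gene with both arrays higher (change 0.27, SE 0.14; adjusted p = 0.776), or 0.09 without DMSO 4. DMSO 3 and DMSO 4 also differed in the mean of the 8 monocytic markers. That mean was 9.24 and 8.75 with FRAX-597, against 9.34 and 8.79 in DMSO 3 and 4. The part of this difference in the results was not tested.

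The 3 genes higher at an unadjusted p under 0.05 were POLI, RRM2B and RAD9B. POLI, a polymerase that copies across damaged bases, was at 8.63 and 8.80 with FRAX-597, against 8.30 and 8.37 in DMSO 3 and 4. The pairs were clearly apart and the change was 0.38 (SE 0.11; adjusted p = 0.4). RRM2B was at 8.63 and 8.64 with FRAX-597, against 8.10 and 8.36 in DMSO 3 and 4 (change 0.40, SE 0.14; adjusted p = 0.562), and 0.27 without DMSO 3. RAD9B, a paralogue of the checkpoint clamp subunit RAD9A, was at 5.63 and 5.72 with FRAX-597, against 5.39 and 5.39 in DMSO 3 and 4 (change 0.29, SE 0.12; adjusted p = 0.632). Its level lies under the median of all probe means (5.76).

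RRM2 had the lowest change with FRAX-597, and it rested on 1 array. The levels were 7.88 and 8.64 with FRAX-597, against 8.78 and 8.72 in DMSO 3 and 4. The change was -0.49 (SE 0.22; adjusted p = 0.685), but -0.11 without FRAX-597 1 and -0.88 without FRAX-597 2, where limma gave an adjusted p of 0.0255. RRM1 had -0.23, with both arrays lower.

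Several repair genes had small changes with both inhibitors. XRCC5, the larger Ku subunit that caps broken ends, was at 11.69 and 11.75 with IPA-3, against 11.83 and 11.81 in DMSO 1 and 2. With FRAX-597 it was at 12.03 and 11.79, against 12.14 and 11.86 in DMSO 3 and 4. Its changes were -0.10 with IPA-3 and -0.09 with FRAX-597. Both IPA-3 arrays lay below DMSO 1 and 2 in XRCC5 and in RAD21, where 28.3% of all genes did so. RAD17, which loads the checkpoint clamp, had a change of -0.004 with IPA-3 (95% interval -0.32 to 0.31) and 0.02 with FRAX-597 (95% interval -0.29 to 0.34). RAD50, part of the complex that trims broken ends, had -0.09 with IPA-3 and 0.01 with FRAX-597, and the cohesin subunit RAD21 had -0.09 and 0.01. The intervals of RAD17 would hold changes as large as that of MCM4. The recombination genes MCM8 and RAD54B lay lower with both inhibitors in every array, where 5.97% of all genes did so. Their changes were -0.15 and -0.14 under IPA-3 and -0.14 and -0.26 under FRAX-597.

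**Figure D2:**
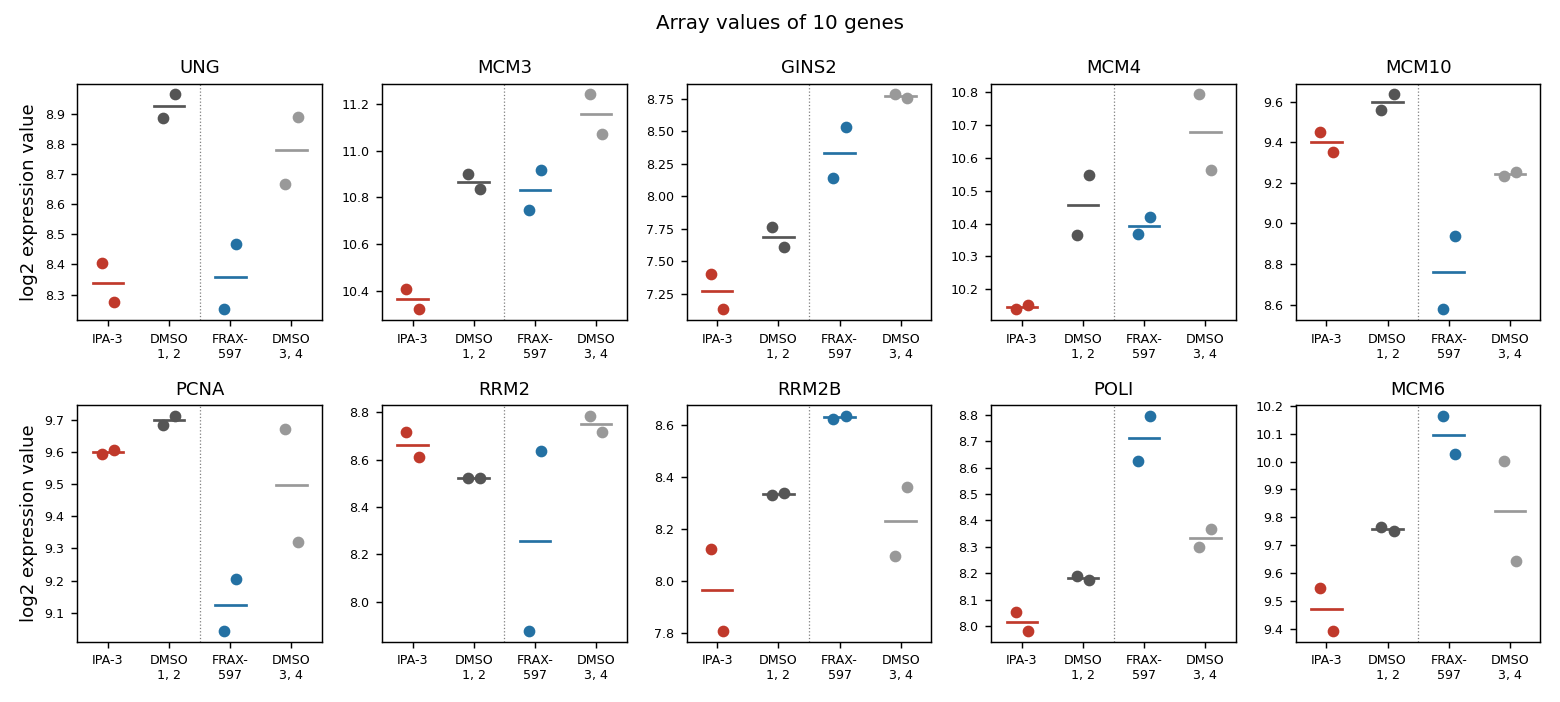
Log2 expression values (vertical axis, a scale of its own for each gene that does not start at 0) of 10 genes in each array (points) with the group mean (line), for IPA-3, DMSO 1 and 2, FRAX-597, and DMSO 3 and 4. UNG, MCM3, GINS2, MCM4, MCM10 and PCNA lie lower with both inhibitors than in their own DMSO arrays, RRM2B, POLI and MCM6 lie lower with IPA-3 and higher with FRAX-597, and the FRAX-597 arrays of RRM2 are apart at 7.88 and 8.64.

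**Figure D3:**
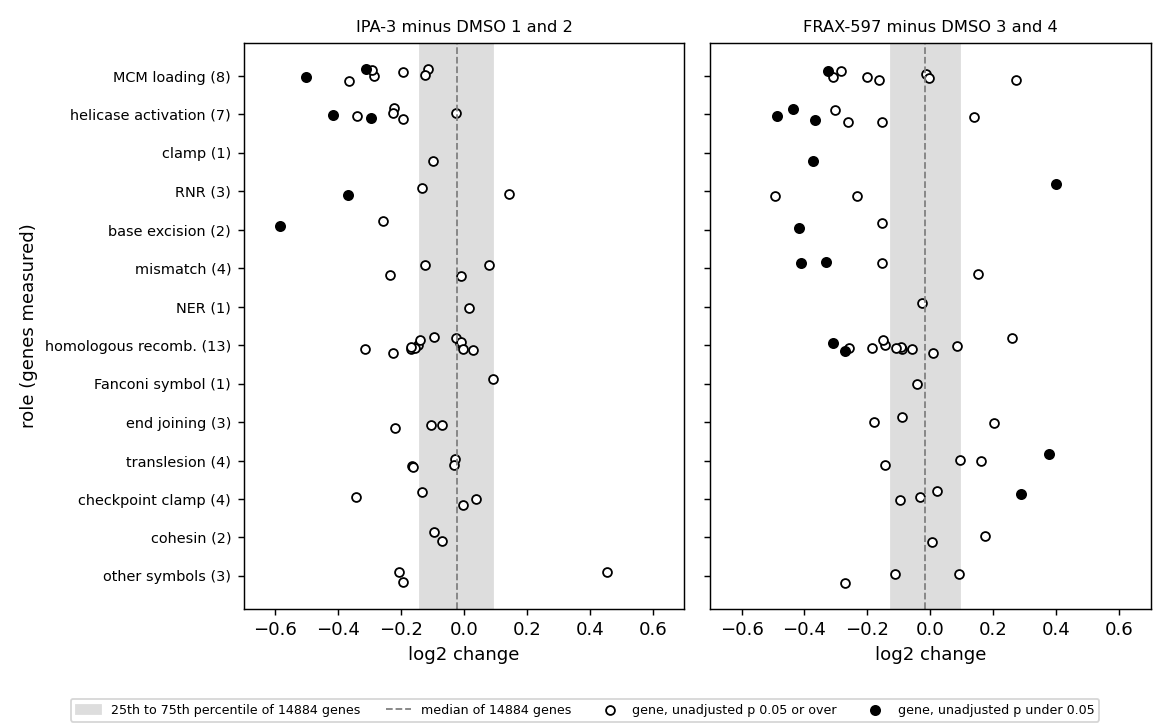
Log2 change of each gene (points, filled at an unadjusted p under 0.05) by role for IPA-3 against DMSO 1 and 2 (left) and FRAX-597 against DMSO 3 and 4 (right), with the range from the 25th to the 75th percentile of all 14884 genes shaded and their median dashed. The 15 genes of helicase loading and activation all lie below 0 with IPA-3, and 13 of them do with FRAX-597.

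The last comparison set the 2 responses side by side. The doses differ by weight, so it is a comparison of the treatments as given. Both changes were below 0 in 35 of 56 genes (62.5%), where 32.1% of all genes had both below 0. Of the 56, 87.5% were below 0 with IPA-3 and 71.4% with FRAX-597. Those 2 shares alone would give 62.5%, so it is no added sign of a shared response. In 16 genes (28.6%) both inhibitors lay below their own DMSO arrays in every array, where 5.97% of all genes did so. That is 44.4% of the 36 lower with IPA-3 and 76.2% of the 21 lower with FRAX-597. Over all genes these shares were 21.1% and 33.6%. Of the 56 genes 37.5% were lower in every array with FRAX-597 and 64.3% with IPA-3, against 17.8% and 28.3% of all genes. The overlap exceeded these shares by about as much in the 56 genes as in all genes. The 16 were CDC45, CDC7, GINS1, GINS2, MCM10, MCM3, MCM4, MCM3AP, MCM8, MSH6, PCNA, RAD18, RAD54B, RAD54L, RRM1 and UNG. UNG, MCM3 and GINS2 were the 3 genes of 56 lower at an unadjusted p under 0.05 with both inhibitors, as were 77 of all 14884.

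The difference between the responses, FRAX-597 minus IPA-3, was tested in the same fit. None of the 56 genes passed at an adjusted p under 0.05 in limma (0.0134% of all genes did). The unadjusted p was under 0.05 in 5 genes (8.93%), where it was in 6.11% of all genes. All 5 were higher, as were 3.43% of all genes, and 0 were lower, as were 2.67%. Of the 56 differences 24 were below 0, as were 48.4% of all genes, and 32 above 0, as were 51.6%. The 5 were RRM2B, POLI, MCM6, RAD52 and XRCC4. Both IPA-3 arrays were below and both FRAX-597 arrays above their DMSO arrays in 6 genes (10.7%), these 5 and GINS4, where 2.96% of all genes had that pattern. The count of 5 was smaller without DMSO 1, DMSO 2, IPA-3 2 or DMSO 4, where 1 array is left in a group. The count over all genes was smaller there too. RRM2B differed by 0.77 (SE 0.20; 95% interval 0.30 to 1.24; adjusted p = 0.596) and POLI by 0.54 (SE 0.15; 95% interval 0.18 to 0.90; adjusted p = 0.635). MCM6 differed by 0.56 (SE 0.20; adjusted p = 0.772), RAD52, which anneals DNA strands, by 0.48 (SE 0.20; adjusted p = 0.794), and XRCC4, the partner of DNA ligase IV in end joining, by 0.42 (SE 0.17; adjusted p = 0.788). GINS4 had a difference of 0.48 (SE 0.21; adjusted p = 0.807) on the brighter of its probes. RRM2 had the opposite pattern, with a difference of -0.64 (SE 0.31; 95% interval -1.37 to 0.10), which was -0.25 without FRAX-597 1 and -1.02 without FRAX-597 2. Without DMSO 4 the difference was 0.30 in RAD52, and without IPA-3 2 it was 0.29 in GINS4. For genes lower with both inhibitors the intervals were wide. UNG differed by 0.17 (95% interval -0.27 to 0.60), MCM3 by 0.18 (-0.21 to 0.57) and GINS2 by -0.02 (-0.55 to 0.52), which does not show equal responses.

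**Figure D4:**
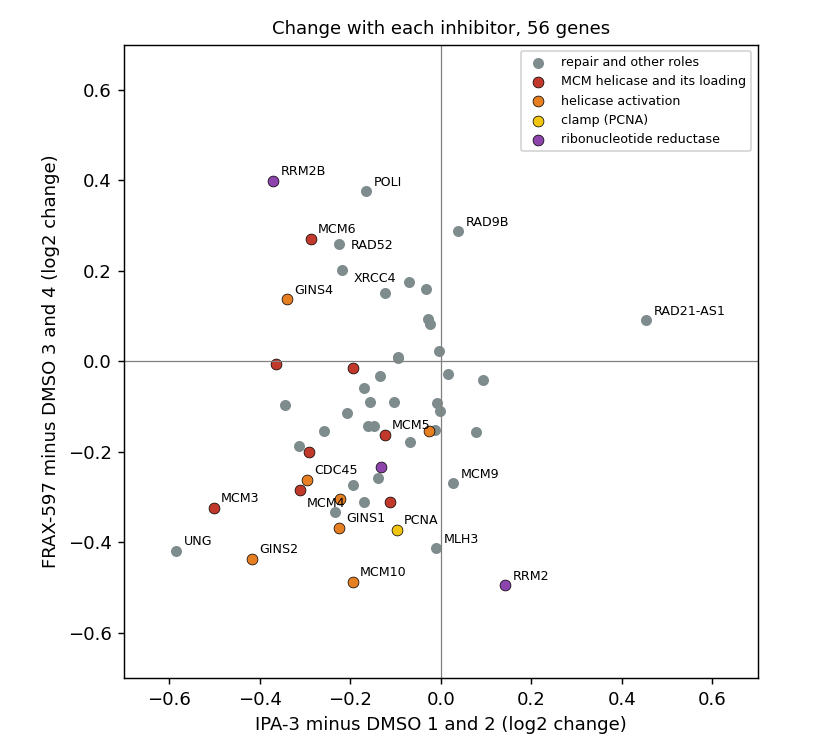
Log2 change with IPA-3 against DMSO 1 and 2 (horizontal) and with FRAX-597 against DMSO 3 and 4 (vertical) for the 56 genes (points, coloured by role). UNG, MCM3, GINS2 and MCM10 lie in the lower left with 35 genes in all, and RRM2B, POLI, MCM6, RAD52, XRCC4 and GINS4 lie in the upper left.

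Other genes of replication and repair, from lists drawn up by function, were examined in the same fit. Of 98 listed genes 61 were measured. With IPA-3, 51 of 61 lay below 0 (median -0.11), where 55.6% of all genes did. The unadjusted p was under 0.05 in 7 (11.5%, against 7.21% of all genes), 6 of them lower, and 0 passed after adjustment in limma. With FRAX-597, 49 lay below 0 (median -0.15), where 54.7% of all genes did. The unadjusted p was under 0.05 in 10 (16.4%, against 7.66% of all genes), all lower, and again 0 passed. The 1 higher gene with IPA-3 was NEIL3, a glycosylase of oxidised bases, at 11.29 and 11.18 with IPA-3, against 10.52 and 10.56 in DMSO 1 and 2 (change 0.69, SE 0.11; adjusted p = 0.228). With FRAX-597, NEIL3 had a change of 0.12 (SE 0.11), a difference of -0.57 between the responses (SE 0.16; adjusted p = 0.614).

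APEX1 and PARP1, which act in base excision repair, are named after their values were seen. APEX1, which nicks the site that UNG leaves, was at 10.25 and 10.03 with IPA-3, against 10.58 and 10.65 in DMSO 1 and 2 (change -0.47, SE 0.13; adjusted p = 0.526), and had a change of -0.39 (SE 0.13; adjusted p = 0.471) with FRAX-597. PARP1, the sensor of DNA breaks, had changes of -0.40 with IPA-3 and -0.46 with FRAX-597 (SE 0.13 each). Other base excision genes on the lists did not share these values. NTHL1 had 0.20 with IPA-3 and -0.01 with FRAX-597, PARP2 had -0.20 and 0.04, and MBD4 had -0.09 and 0.09. Smaller changes below 0 with both inhibitors were seen in NEIL1 (-0.17 and -0.15), MUTYH (-0.11 and -0.17), SMUG1 (-0.24 and -0.05) and TDG (-0.12 and -0.05). By the rule for named genes, the cohesion factor DSCC1 had -0.53 with FRAX-597 (SE 0.16; adjusted p = 0.431). The dNTP hydrolase SAMHD1 had -0.31 (SE 0.11; adjusted p = 0.63) and the checkpoint kinase CHEK2 -0.34 (SE 0.12; adjusted p = 0.616) with IPA-3. Of 10 measured genes of the E2F and RB families, 0 had an unadjusted p under 0.05 with IPA-3 (7.21% of all genes had) and 1 had with FRAX-597 (7.66% had). This was E2F7, an atypical repressor of the family and itself an S-phase gene, at 8.48 and 8.77 with FRAX-597, against 9.08 and 9.23 in DMSO 3 and 4 (change -0.53, SE 0.13; adjusted p = 0.291). With IPA-3 its change was 0.07 (SE 0.13), and the difference between the responses was -0.60 (SE 0.18; adjusted p = 0.681).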

How the data were processed

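Values were the authors' deposited log2 expression values of 53617 probes on 8 1-colour Affymetrix arrays. Per the submitters' processing notes, Affymetrix Expression Console and Transcriptome Analysis Console were used. For the summarisation and normalization, the labels name no method. The platform annotation gave 1 gene for 16098 probes, several for 0 and none for 37519. All 14884 genes matched the reference table by identifier, and 0 of the 56 symbols had changed.

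Where a gene had several probes, its brightest by mean level was used. limma 3.58.1 in R 4.3.3 (lmFit, eBayes, no covariate) was fitted to 4 groups over all arrays, so that 1 spread per gene was shared, with Benjamini-Hochberg adjustment over 14884 genes. The split of the DMSO arrays follows the array sets, which were recognised from the values and carry no label. The number of arrays limits the precision.

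Members, roles and other lists were chosen with earlier results of these data known. Genes named by rule were MCM4, MCM5, GINS2 and UNG, the members with the smallest p-values in each contrast, the member of highest level in each role and, for each other list, the gene with the smallest p (in the IPA-3 contrast where counts tied). Others were named after their values were seen. Alternatives changed the controls, normalization, centring, prior, filter, probes and arrays.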

Additional observations from a re-analysis of the deposited data

Results flagged for a closer look

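In 2 genes 1 of the 4 DMSO arrays stood far from the other 3, judged by its gap to the nearest array as a share of the whole range. For RRM2B this was DMSO 3 at 8.10, with the other 3 arrays from 8.33 to 8.36 and a gap of 0.885 of the range. For PCNA it was DMSO 4 at 9.32, with the others from 9.67 to 9.71 and a gap of 0.9 of the range. About 1 in 20 genes is marked so by chance, and 26 genes were examined. The 4 arrays come from both array sets, whose scales differ, so these gaps compare levels across sets.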

How the results depend on the processing

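Of 869 changes of named genes recomputed under 16 other settings, 856 kept their direction and their side of the threshold and 12 changed sign. None of these genes passed in the main fit, so keeping that side shows little. Many were named for a small p in these data, which favours a kept direction. RRM2 with FRAX-597 alone passed the threshold, at -0.88 without FRAX-597 2 (adjusted p = 0.0255). There 227 of all 14884 genes passed, and the 1 FRAX-597 array left is assumed to vary like the other groups. With the 4 DMSO arrays pooled, which mixes the array sets and their scales, the median of the 56 genes minus that of all genes was -0.024 for IPA-3, -0.21 for FRAX-597 and -0.17 for the difference between the responses. With FRAX-597 that setting left 26 genes below 0 (21.8% of all genes were), with an unadjusted p under 0.05 for 5 lower and 1 higher gene (158 and 770 of all 14884). For the difference 18 were higher and 4 lower (4548 and 396 of all genes). It turned CDC45 (0.17), GINS1 (0.011), GINS2 (0.11), MCM5 (0.022) and MCM7 (0.23) with FRAX-597 and PCNA (0.0028) with IPA-3. With the 4 arrays of a contrast fitted alone, 16 genes were lower at that threshold with IPA-3 and 2 with FRAX-597 (1277 and 272 of all 14884). Quantile normalization gave a median of -0.084 relative to all genes for IPA-3. Centring each array turned MCM2 with FRAX-597 (0.0093), and averaging probes turned GINS4 with FRAX-597 (-0.00438). The causes were not tested.

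Leaving out 1 array at a time, the genes lower at an unadjusted p under 0.05 numbered 2 to 8 with IPA-3 and 2 to 14 with FRAX-597, and those higher 0 to 1 with IPA-3 and 1 to 3 with FRAX-597. For the difference 2 to 5 were higher and 0 to 2 lower. Genes with an adjusted p under 0.05 with FRAX-597 numbered 0 to 1. The median relative to all genes was -0.14 to -0.063 for FRAX-597. The changes with FRAX-597 ran from -0.29 to 0.28 in MCM2, from -0.38 to 0.058 in MCM5 and from -0.51 to 0.11 in MCM7. No paired analysis was possible because the labels of the IPA-3 and FRAX-597 samples carry no replicate number shared with DMSO, and a pairing read from the values alone was not used. Precision is limited by 2 arrays a group, and signal over background was not given for any probe.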

Other observations

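Some of the repair genes differed more between the arrays of 1 group than between FRAX-597 and DMSO, and they were chosen after their values were seen. RAD1, a subunit of the checkpoint clamp, was at 8.99 and 9.62 with FRAX-597, against 8.89 and 9.78 in DMSO 3 and 4. MSH5, a member of the MSH family that acts in meiosis, was at 9.33 and 9.86 with FRAX-597, against 9.18 and 9.71 in DMSO 3 and 4. In both genes DMSO 4 and FRAX-597 2 were the high arrays. The differences DMSO 3 minus DMSO 4 and FRAX-597 1 minus FRAX-597 2 had the same sign in 36 of the 56 genes (64.3%), where they had in 67% of all genes.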
